A study of Daphnia magna with 144 samples.

Results

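Chlorpyrifos, Diazinon and Parathion are the 3 organophosphate insecticides among 36 chemicals tested on the water flea *Daphnia magna*. They were chosen by compound class, and each has 4 arrays like the other chemicals, 12 in all. All animals were whole daphnids, 14 days old, kept in groups of 20 for 24 h in 1 L of COMBO medium, a defined freshwater medium, each chemical being dosed at 1/10 LC50. The LC50 is the level that kills the median animal. Chlorpyrifos was given at 0.00129 mg/L and belongs to the Methanol control. Diazinon at 0.0003 mg/L and Parathion at 0.00226 mg/L belong to the Acetone control. The other Methanol chemicals were Aroclor, a mixture of polychlorinated biphenyls, at 0.166 mg/L, and Methylfarnesoate, a crustacean juvenoid hormone. For Methylfarnesoate no concentration in mg/L is listed. The other Acetone chemical was Atrazine, a triazine herbicide, at 2.07 mg/L. The doses of the 3 organophosphates were thus matched as a fraction of the LC50 and in time, and they differed in mg/L.

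Organophosphate insecticides inhibit acetylcholinesterase, the enzyme that breaks down the transmitter acetylcholine at cholinergic synapses, so that the transmitter accumulates and nerve signals persist. All 3 compounds are diethyl phosphorothioates, which cytochrome P450 enzymes turn into oxons, the forms that bind the enzyme strongly. They differ in the group that leaves on binding, a chlorinated pyridine ring in Chlorpyrifos, a pyrimidine ring in Diazinon and a nitrophenyl ring in Parathion. Carboxylesterases, glutathione S-transferases and paraoxonase-like enzymes take part in their breakdown in animals. The files name each probe only by an array identifier and do not pair it with a gene or a sequence, so no acetylcholinesterase, P450 or esterase gene could be picked out here.

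The arrays were 1-colour and labelled with Cy3. Over the 12 organophosphate arrays the median foreground intensity ran from 74 to 113.5 over a median background of 35 to 38. Between 53% and 85% of probes were above background, the lowest share being that of Parathion array 4, and each had 3 to 10 probes at the scanner limit. Precision is limited by how few arrays there are.

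The 4 arrays of each compound fell into 2 close pairs, which the labels do not mention. Arrays 1 and 2 went together in Chlorpyrifos and in Diazinon, as did arrays 3 and 4, and in Parathion the pairs were arrays 1 and 4 and arrays 2 and 3. Over 6602 bright probes, the SD of the log2 difference between the arrays of a pair was 0.0849 and 0.103 in Chlorpyrifos, 0.111 and 0.0823 in Diazinon, and 0.0767 and 0.0776 in Parathion. Arrays of different pairs differed with an SD of 0.232 to 0.259 in Chlorpyrifos, 0.29 to 0.303 in Diazinon and 0.31 to 0.315 in Parathion. Duplicate spots on a single array of these compounds differed with an SD of 0.131 to 0.254, so the arrays of a pair were closer to each other than 2 spots of the same probe on 1 array. The pairing taken was the one with the least spread within pairs, which favours a smaller spread within than between pairs. The duplicate spots were those of 496 bright probes before quantile normalization, so their SD is not a like measure. With these limits, arrays of a pair were counted as 1 sample. Every mean below is a mean of 2 pair means, every SD is over those 2 values (n = 2), and values of single arrays are given in the order of arrays 1 to 4. What the arrays of a pair share (an RNA extract, animals or a labelling) was not tested.

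**Figure D1:**
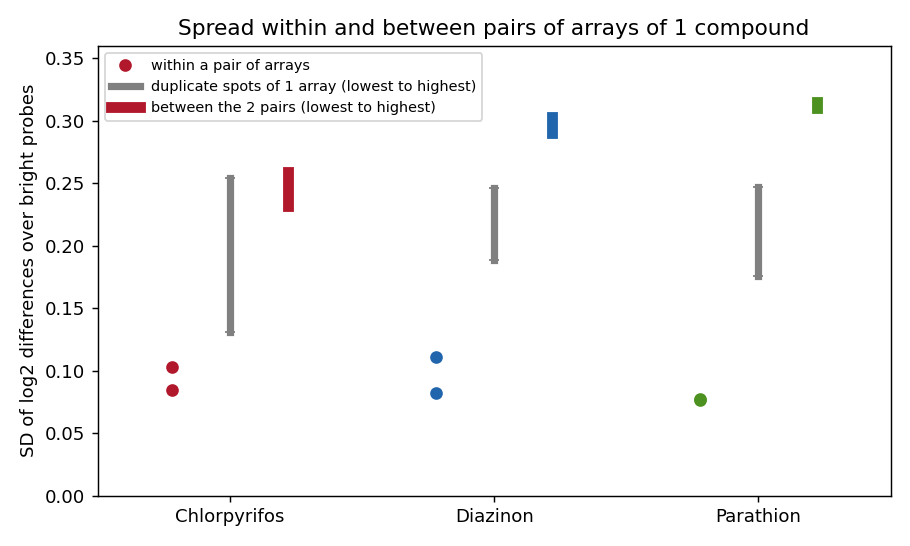
Spread of log2 differences (y axis, SD over bright probes) for each compound (x axis). Points are the 2 pairs of arrays, grey bars span the SD between duplicate spots on 1 array, and coloured bars span the SD between arrays of different pairs. In all 3 compounds both points lie under the grey bar and well under the coloured bar.

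Between its pairs, each compound also had probes with large differences. Of 14276 probes in the scanner tables, the pair means lay at least 1 apart on the log2 scale at 41 probes in Chlorpyrifos (0.287%), 89 in Diazinon (0.623%) and 100 in Parathion (0.7%). For 8, 25 and 13 of these the distance was 2 or more. Values of named probes below show several that split by pair within Diazinon or Parathion.

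Changes against the vehicle control were read from the authors' deposited log2 ratios. The arrays of the controls themselves match no labelled sample and were not used, so the spread of the controls is left out of these tests and the p-values are too small. A probe was called where limma's adjusted p was under 0.05 and the mean ratio was at least 1 on the log2 scale in either direction. Chlorpyrifos had 327 probes higher and 439 lower than the Methanol control, 5.71% of the 13422 tested (2.44% higher and 3.27% lower). Quantile normalized ratios gave 1879 calls in Chlorpyrifos, 1010 higher and 869 lower, so that the share that was higher moved from 42.7% to 53.8%. They gave 2226 in Diazinon and 2248 in Parathion, so how far Chlorpyrifos lies under the other 2 in number of calls depends on the normalization. With the control given the error of the treated samples, Chlorpyrifos kept 510 calls, and with the filter on dim probes 487. Diazinon had 1337 higher and 932 lower than the Acetone control (16.9%, of which 9.96% higher and 6.94% lower). Parathion had 1200 higher and 917 lower (15.8%, of which 8.94% and 6.83%). The median called rise was 1.37 on the log2 scale in Chlorpyrifos, 1.74 in Diazinon and 1.58 in Parathion, and the median called fall was -1.35, -1.46 and -1.39. Rises or falls of at least 2 on the log2 scale were seen at 64 and 67 probes in Chlorpyrifos, at 575 and 248 in Diazinon, and at 394 and 160 in Parathion. Ratios to different vehicle controls carry the difference between the controls as well, and this could not be told apart from the compounds in these counts. Since the animals were sampled whole, fewer cells of a type and less RNA per cell cannot be told apart.

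All 3 organophosphates changed 53 probes in the same direction (0.395%), 43 higher (0.32% of the 13422) and 10 lower (0.0745%). The number was 35 with the control given the error of the treated samples, 33 with the filter on dim probes and 113 with quantile normalized ratios. The median ratio of the 43 was 1.39 in Chlorpyrifos, 2.76 in Diazinon and 2.04 in Parathion, and that of the 10 was -1.64, -1.91 and -2.81. Over all probes the median ratio was -0.02, -0.01 and 0.02. At 39 of the 43 and 7 of the 10, every one of the 12 arrays lay on the same side of 0. The 53 were called on these same ratios, so this largely follows from the call and adds nothing to it. No share over all probes was computed for it. In all, 19 of the 43 and 3 of the 10 were above background on all 12 arrays with every array on the same side, and 4 of the 43 were above background on none of the 12. The level of the control, as implied by the ratios, was above background in both vehicles at 16 of the 43 and 4 of the 10. Background here is the highest detection threshold among the arrays of each compound. In Parathion it was that of array 4, a net signal of 58.67, beside 8.38 or less on its other arrays. Diazinon and Parathion share the Acetone control, so their agreement is not that of independent comparisons.

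**Figure D2:**
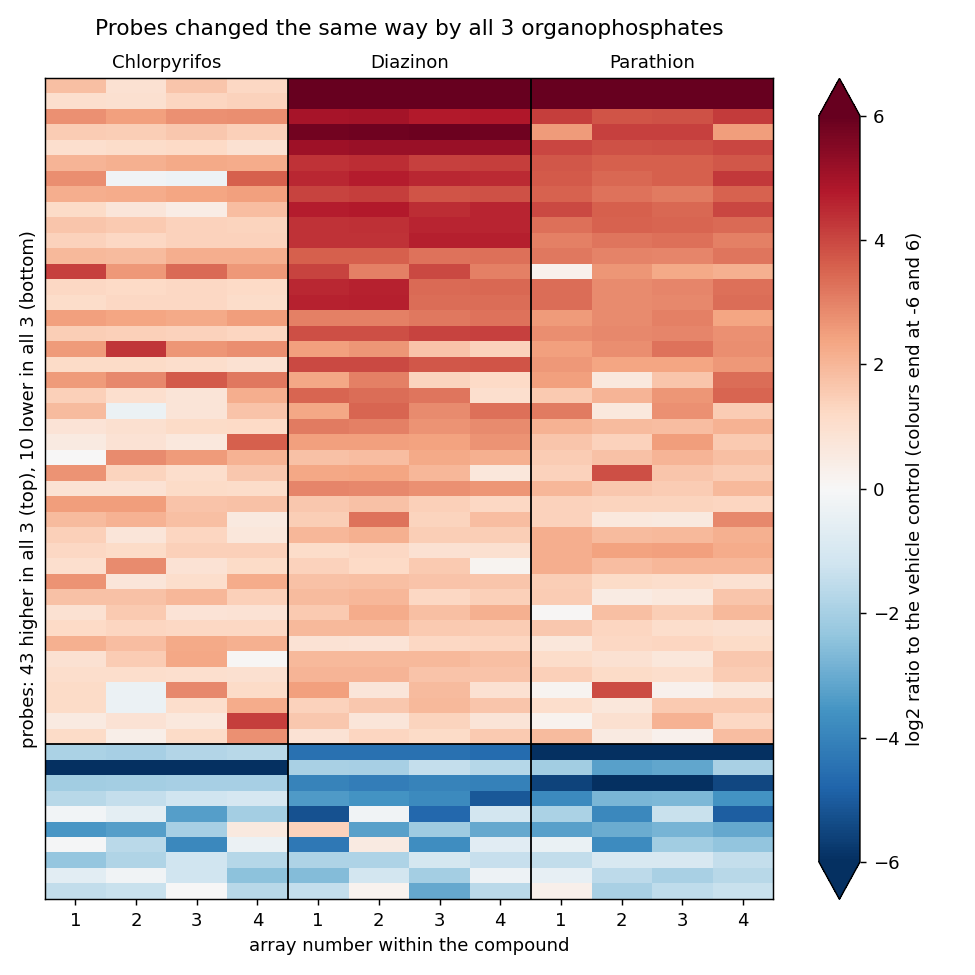
Log2 ratio to the vehicle control (colour, ending at -6 and 6) of the 53 probes changed the same way by all 3 organophosphates (rows, 43 higher above the line and 10 lower under it) on each of the 12 arrays (columns, 4 per compound). The rises are paler in Chlorpyrifos (median 1.39) than in Diazinon (2.76). In 39 of the upper and 7 of the lower rows all 12 arrays lie on one side of 0, which largely follows from the call on these ratios.

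Ranked by the smallest of the 3 mean ratios, among probes above background and unsaturated on all 12 arrays, DM08486 came first of the shared rises. Its log2 ratio was 2.72, 2.48, 2.74 and 2.77 on the Chlorpyrifos arrays, 4.93, 5.00, 4.78 and 4.81 on the Diazinon arrays and 4.14, 3.78, 3.81 and 4.2 on the Parathion arrays. The 3 compounds did not overlap, with Chlorpyrifos lowest and Diazinon highest. The implied control level was not above background in either vehicle, so the rise has only a lower bound, at least 2.85-fold in Chlorpyrifos, at least 13.1-fold in Diazinon and at least 2.62-fold in Parathion (adjusted p of 3.1e-09, 1.9e-17 and 1.9e-14). Its place in the ranking rests on ratios to a control at background, and the bounds do not show that it rose most. Here and below, a bound depends on the thresholds of the compound's own arrays, so bounds do not rank the compounds. In the scanner levels, which need no control, Diazinon stood at 8.43 ± 0.06, Parathion at 7.71 ± 0.15 and Chlorpyrifos at 6.59 ± 0.05.

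The second shared rise was DM12048, at 2.47, 2.39, 2.29 and 2.49 on the Chlorpyrifos arrays, 3, 3.04, 3.15 and 3.26 on the Diazinon arrays and 2.54, 2.84, 3.04 and 2.39 on the Parathion arrays. Here the arrays of Parathion overlapped with those of both other compounds. Chlorpyrifos was 5.31-fold above the Methanol control (2.41 ± 0.03, adjusted p = 1.6e-15), while the Acetone control was not above background, so the rise was at least 6.46-fold in Diazinon and at least 1.83-fold in Parathion (adjusted p of 3.5e-20 and 6.9e-18). The scanner levels were 7.65 ± 0.04, 7.65 ± 0.13 and 7.37 ± 0.25 in Chlorpyrifos, Diazinon and Parathion. The difference between Diazinon and Parathion was 0.28, with a 95% interval of 0.02 to 0.53, and was not called (adjusted p = 0.074).

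Among the shared falls, DM05269 had ratios of -2.10, -2.04, -2.01 and -2 in Chlorpyrifos, -4.02, -4.16, -4.03 and -4.05 in Diazinon, and -5.54, -7.50, -7.04 and -5.46 in Parathion. Chlorpyrifos was highest and Parathion lowest, without overlap, and the Parathion arrays split by pair. The falls were 4.11-fold, 16.7-fold and 83.7-fold (adjusted p of 3.1e-05, 1.7e-12 and 3.4e-18). DM11495 showed the same order, at -1.88, -2.01, -1.76 and -1.65 in Chlorpyrifos, -4.47, -4.46, -4.48 and -4.60 in Diazinon and -6.07, -8.34, -8.49 and -6.02 in Parathion. Its falls were 3.54-fold, 22.7-fold and 150-fold (adjusted p of 1.8e-06, 1.7e-17 and 8.6e-24). With the fit restricted to the 12 organophosphate arrays, the Chlorpyrifos fall of DM11495 was no longer called (adjusted p = 0.07). Scanner levels of DM11495 stood at 13.27 ± 0.10 in Chlorpyrifos, 10.76 ± 0.07 in Diazinon and 8.32 ± 1.26 in Parathion, a difference of 2.44 between Diazinon and Parathion (95% interval 1.82 to 3.06, adjusted p = 2.5e-08).

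The other chemicals of the same vehicles also had positive median ratios at the shared rises. Over the 43 probes the median ratio was 2.69 in Atrazine, 1.65 in Aroclor and 2.68 in Methylfarnesoate, each against the control it shares with 1 or more of the organophosphates. At the 10 shared falls it was -2.13 in Atrazine, -0.75 in Aroclor and -0.60 in Methylfarnesoate. None of the 53 probes was also called in the same direction both in Chlorpyrifos against the other Methanol chemicals and in Diazinon and Parathion against Atrazine. Such joint calls were rare over all 14276 probes too. With Diazinon and Parathion each also called against Atrazine, they came to 0 upward and 50 downward (0.35%). The 0 among the 53 is therefore near the background and says little about them. Within the shared sets, the compounds still differed in size. Of the 43 rises, 37 were not called between Diazinon and Parathion, and at 29 the 95% interval of that difference lay within 1 on the log2 scale. Over all 14276 probes 5.02% were called in this contrast, and at 88.9% the interval lay within 1. The 37 and 29 therefore do not show an agreement particular to the 43. Against Chlorpyrifos, 20 of the 43 ratios were higher in Diazinon and 18 in Parathion, beside 1940 and 1791 of all 13422 probes. At 1 of the 43 the ratio was higher in Chlorpyrifos than in Diazinon, beside 1447 of all probes.

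Chlorpyrifos shares no control with Diazinon or Parathion, and its calls were set against theirs. With Diazinon, 61 probes were higher in both and 27 lower in both, which is 11.5% of the Chlorpyrifos calls and 3.88% of the Diazinon calls. The 61 are 18.7% of the probes higher in Chlorpyrifos, beside 9.96% of all probes that were higher in Diazinon, while the 27 are 6.15% of those lower in Chlorpyrifos, beside 6.94% of all probes, a share near the background. In opposite directions there were 80 probes higher in Chlorpyrifos and lower in Diazinon and 157 the other way round, 30.9% and 10.4% of the calls. The 80 are 24.5% of the probes higher in Chlorpyrifos, beside 6.94% of all probes that were lower in Diazinon. The 157 are 35.8% of those lower in Chlorpyrifos, beside 9.96% of all probes. With Parathion, 76 were higher in both and 34 lower in both (14.4% and 5.2%), and 46 and 139 had opposite directions (24.2% and 8.74%). The 76 are 23.2% of the probes higher in Chlorpyrifos, beside 8.94% of all probes, and the 34 are 7.74% of those lower, beside 6.83%. Of the opposite ones, the 46 are 14.1% of the probes higher in Chlorpyrifos, beside 6.83% of all probes. The 139 are 31.7% of those lower, beside 8.94%. These shares were not tested, and the Methanol and Acetone controls enter them. At 26 probes (0.194%) Chlorpyrifos was higher while both Acetone compounds were lower, and at 104 (0.775%) it was lower while both were higher, with both contrasts of Chlorpyrifos called.

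**Figure D3:**
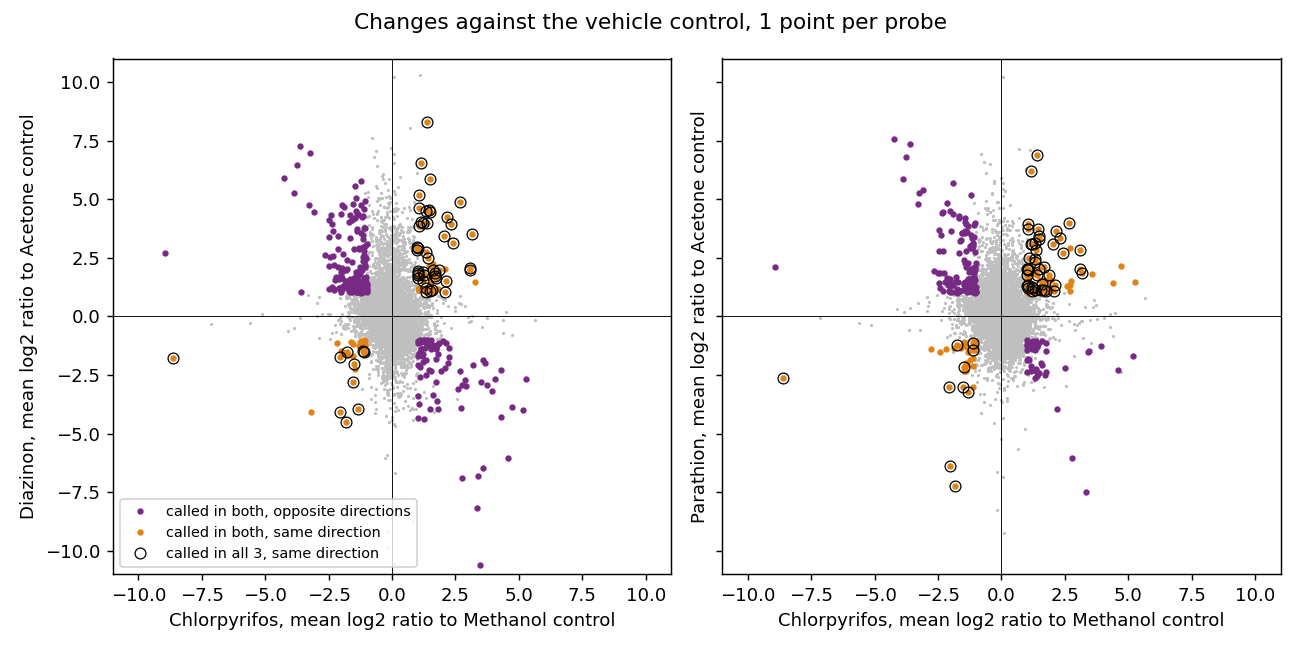
Mean log2 ratio to the vehicle control of each of 13422 probes in Chlorpyrifos (x axis) against Diazinon (left panel, y axis) and Parathion (right panel, y axis). Orange points were called in both in the same direction, purple points in opposite directions, and open circles mark the 53 probes called the same way in all 3. There are 237 purple and 88 orange points for Diazinon, and 185 purple and 110 orange points for Parathion.

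The direct contrasts of the ratios gave 3387 probes that differed between Chlorpyrifos and Diazinon (25.2%), 1447 higher and 1940 lower in Chlorpyrifos. Between Chlorpyrifos and Parathion 3173 differed (23.6%), 1382 higher and 1791 lower in Chlorpyrifos. Together with Diazinon against Parathion these are the 3 possible pairs, and the p-values were adjusted over all 3 at once. The scanner levels, in which no control enters but the vehicles still differ, gave 1983 (13.9%) and 1107 (7.75%), each adjusted on its own. The 95% interval of the difference lay within 1 on the log2 scale at 41.6% of probes for Chlorpyrifos and Diazinon and at 42.8% for Chlorpyrifos and Parathion in the ratios, and at 78.1% and 83.3% in the scanner levels.

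Some probes were far brighter in Chlorpyrifos than in both Acetone compounds. A probe was assigned to 1 compound where it was called against control, called in the same direction against both other compounds, and outside all 8 arrays of those compounds in the ratios. The contrast of Diazinon with Parathion in this rule was that of the scanner levels, and the other contrasts were those of the ratios. By this rule 139 probes were assigned to Chlorpyrifos as higher (1.04%). DM01611 came first among them, with ratios of 3.19, 3.23, 3.36 and 3.52 in Chlorpyrifos, -8.58, -7.48, -9.07 and -7.57 in Diazinon and -7.25, -7.90, -7.44 and -7.45 in Parathion. It was above background on 4 Chlorpyrifos, 2 Diazinon and 3 Parathion arrays. The rise over the Methanol control was 10.0-fold (adjusted p = 2.8e-12). Diazinon and Parathion were called lower than the Acetone control (adjusted p of 2.1e-25 and 7e-24), but with arrays not above background in both, the size of those falls is uncertain. The scanner levels gave the same picture without a control, at 14.71, 14.72, 14.74 and 14.83 in Chlorpyrifos, 6.19, 6.50, 6.09 and 6.49 in Diazinon and 6.64, 6.42, 6.57 and 6.56 in Parathion. DM01998 followed with 15.81, 15.79, 15.99 and 15.99 in Chlorpyrifos, saturated on 1 of the 4 arrays, 7.60, 7.65, 7.78 and 7.78 in Diazinon and 8.34, 8.24, 8.27 and 8.33 in Parathion. Its ratio was 2.77 ± 0.11 in Chlorpyrifos, -6.91 ± 0.07 in Diazinon and -6.03 ± 0.06 in Parathion, and Diazinon and Parathion differed by -0.59 (95% interval -1.37 to 0.18, adjusted p = 0.23).

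In the other direction, 275 probes were assigned to Chlorpyrifos as lower by the same rule (2.05%). DM11644 had ratios of -8.93, -8.96, -8.84 and -8.98 in Chlorpyrifos, 2.98, 3, 2.36 and 2.51 in Diazinon and 2.43, 1.75, 1.76 and 2.41 in Parathion. Its scanner levels lay much closer together, at 6.64 ± 0.03, 8.83 ± 0.28 and 8.36 ± 0.34. The control level implied by the ratios was 14.34 in Methanol and 5.96 to 6.03 in Acetone, so Chlorpyrifos and Diazinon differed by -11.64 in the ratios and by -2.19 in the levels. DM09557 differed in both measures, with levels of 6.97, 7.02, 6.89 and 6.96 in Chlorpyrifos, 13.81, 13.75, 13.85 and 13.75 in Diazinon and 13.97, 14.35, 14.34 and 14.08 in Parathion. Its ratios were -3.61 ± 0.09, 7.28 ± 0.04 and 7.36 ± 0.16, a 12.2-fold fall and rises of 155-fold and 164-fold (adjusted p of 9.3e-13, 2.8e-23 and 4.2e-23). Of the 139 higher and 275 lower probes, 113 and 220 also lay outside all 8 arrays of the other compounds in the scanner levels. The rule had already placed them outside these arrays in the ratios, so the 113 and 220 are partly set by the selection. No share over all probes was computed for them.

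Diazinon and Parathion share the vehicle, so they were compared in the scanner levels, with the error of both compounds in the test and no control. Diazinon was higher at 424 probes (2.97%) and lower at 293 (2.05%), 5.02% of 14276 in all. Plain background subtraction gave 1425 calls, 816 higher and 609 lower, and the deposited ratios gave 1477, 866 higher and 611 lower. At 88.9% of probes the 95% interval of the difference lay within 1 on the log2 scale, at 6.07% the probe was neither called nor so bounded, and the median distance from the difference to its interval's end was 0.20. The arrays did not overlap at 423 of the 424 and 292 of the 293 probes. These probes were called on the same levels, so this largely follows from the call and adds nothing to it. No share over all probes was computed for it. Differences of at least 2 on the log2 scale numbered 65 among the former and 131 among the latter.

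**Figure D4:**
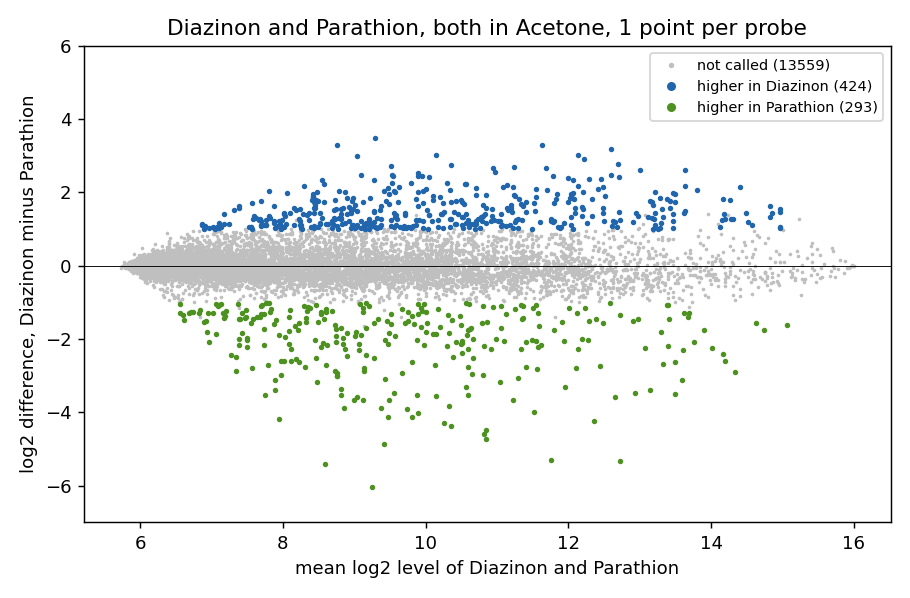
Log2 difference of scanner levels, Diazinon minus Parathion (y axis), against the mean level of both (x axis, log2), 1 point per probe. The 424 probes higher in Diazinon reach a difference of 3.5, while the 293 probes higher in Parathion reach -6.05.

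DM05279 was the probe with the largest excess in Diazinon. Its level was 11.34, 11.30, 10.76 and 10.75 on the Diazinon arrays and 7.38, 7.72, 7.70 and 7.34 on the Parathion arrays, 11.3-fold apart (3.5 on the log2 scale, SE 0.27, 95% interval 2.96 to 4.04, adjusted p = 1.1e-13). Against the Acetone control the compounds went opposite ways, 6.63-fold up in Diazinon and 2.72-fold down in Parathion (adjusted p of 1.1e-11 and 1.4e-05), and the Chlorpyrifos ratio of 0.54 was not called (adjusted p = 0.12). DM10454 stood at 13.13, 13.03, 13.47 and 13.49 in Diazinon and at 10.16, 9.78, 9.81 and 10.17 in Parathion, a 9.85-fold difference (95% interval 1.99 to 4.61 on the log2 scale, adjusted p = 7.1e-05).

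The probe with the largest excess in Parathion was DM07698, at 12.92, 11.59, 11.58 and 13.01 against 6.26, 6.21, 6.21 and 6.22 in Diazinon. The difference was 66.2-fold (95% interval -8.24 to -3.86 on the log2 scale, Diazinon minus Parathion, adjusted p = 1.9e-05), and the Parathion arrays split by pair. Chlorpyrifos stood at 11.14, 11.22, 11.44 and 11.52. Against the control, Diazinon fell 341-fold (adjusted p = 2.7e-11), while the ratios of Chlorpyrifos (-0.23 ± 0.26) and Parathion (-0.09 ± 1.08) were not called (adjusted p of 0.87 and 0.94). The Diazinon levels of DM07698 were as low as those of DM01611, which was not above background on every Diazinon array. The sizes of 66.2-fold and 341-fold are therefore uncertain. DM05972 was above background on no Diazinon array, where its level was 5.80, 5.84, 6.03 and 5.85, and stood at 11.74, 10.87, 10.81 and 11.75 in Parathion. The excess in Parathion was at least 35.1-fold (adjusted p = 5.3e-14), and Diazinon lay at least 46.3-fold under the Acetone control (adjusted p = 1.6e-21). Its 4 ratios in Diazinon ran from -11.92 to -2.30, with none of the arrays above background. Chlorpyrifos stood at 12.59 ± 0.01 with a ratio of 0.82 (adjusted p = 0.13).

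The rule that assigned probes to 1 compound, applied to Diazinon, gave 170 lower probes (1.27%), with DM07698 and DM05972 first, and 97 of the 170 were called against control in neither of the others. On the high side it gave 148 probes (1.1%), 47 of them not called against control in the others. DM08360 led these, at 13.95, 14.08, 13.30 and 13.37 in Diazinon, 11.18, 10.39, 10.30 and 11.19 in Parathion and 6.17, 6.13, 6.17 and 6.23 in Chlorpyrifos. Diazinon exceeded Parathion 7.51-fold (adjusted p = 1.9e-05), and Parathion was also above the control. With the Acetone control not above background, the rises were at least 686-fold in Diazinon and at least 29.5-fold in Parathion (adjusted p of 2.5e-20 and 6.4e-15), and the ratio of 1.11 in Chlorpyrifos was not called (adjusted p = 0.1). DM08801 was raised 2.97-fold in Diazinon (adjusted p = 0.00045) and lowered 2.52-fold in Parathion (adjusted p = 0.0027). Its ratios were 1.49, 1.47, 1.70 and 1.62 in Diazinon and -0.93, -1.79, -1.79 and -0.83 in Parathion, and in Chlorpyrifos they were -0.89, -0.86, -0.96 and -0.98, without a call (adjusted p = 0.059).

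For Parathion the same rule gave 89 higher probes (0.663%) and 166 lower (1.24%), with 37 and 142 not called against control in the other 2 compounds. DM09374 was raised 2.51-fold in Parathion (adjusted p = 1.8e-05) at ratios of 1.19, 1.35, 1.60 and 1.15, and lowered in both others. The ratios in Diazinon were -1.43, -1.54, -2.94 and -3.04 and those in Chlorpyrifos -1.76, -1.66, -1.23 and -1.24 (adjusted p of 3.3e-10 and 9.4e-06). DM05761 was raised 4.54-fold in Parathion (adjusted p = 4.6e-05), at ratios of 2.00, 2.37, 2.36 and 2.00, while the Diazinon pairs disagreed in sign, at 0.23, 0.23, -3.74 and -3.78. Its call was lost in the fit over the 12 organophosphate arrays (adjusted p = 0.094) and with array weights (adjusted p = 0.063). In the scanner levels Chlorpyrifos (12.41 ± 0.05) and Parathion (13.05 ± 0.33) were not called apart (adjusted p = 0.39).

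Of the probes lowest in Parathion, DM02274 had ratios of -2.09, -2.64, -2.66 and -2.10 in Parathion, 0.30, 0.24, 0.59 and 0.57 in Diazinon and 0.47, 0.60, 0.89 and 0.90 in Chlorpyrifos, a 5.17-fold fall in Parathion (adjusted p = 2.1e-05). The scanner levels of Chlorpyrifos (9.09 ± 0.21) and Parathion (8.66 ± 0.31) differed by 0.43 (adjusted p = 0.51), while Diazinon stood at 11.13 ± 0.25. DM06030 fell 4.02-fold in Parathion at -2.55, -1.5, -1.45 and -2.53 and rose 4.54-fold in Diazinon at 2.40, 2.48, 1.90 and 1.96 (adjusted p of 7.5e-08 and 8.2e-09). In the scanner levels 65 of the 89 higher and 52 of the 166 lower Parathion probes lay outside all 8 arrays of the other compounds, against 148 of 148 and 170 of 170 for Diazinon. The rule had already required the contrast of Diazinon with Parathion to be called in these levels. These counts are therefore partly set by the selection.

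The organophosphates were last set against the other chemicals of their own vehicle in the scanner levels. Chlorpyrifos was higher than the mean of Aroclor and Methylfarnesoate at 282 probes and lower at 470 (5.27%), and the number called was 1686 with plain background subtraction and 1693 with the deposited ratios. Diazinon and Parathion together were higher than Atrazine at 54 probes and lower at 163 (1.52%), and the number called was 702 with plain background subtraction, 413 with median centring and 744 with the deposited ratios. The share that was higher in this Acetone contrast, 24.9%, was 35.6% with plain background subtraction and 86.4% with median centring, so its direction depends on the scaling. No probe was set apart upward in both vehicles and 50 were set apart downward (0.35%), with Diazinon and Parathion each lower than Atrazine by the test (8.41% and 9.11% of all probes were lower in those contrasts). At an unadjusted p under 0.05 in both limma contrasts, 7 were higher and 70 lower with the minimum change of 1, and 631 and 699 without it. Adjusted and without the minimum change, 84 were higher and 187 lower. The count of 0 upward thus depends on the minimum change, and it depends on the processing as well. With that minimum kept, 4 were higher with plain background subtraction and 4 with the deposited ratios. Arrays counted singly gave 1 higher, and 2 with the replicate number as a block over the 24 Methanol and Acetone arrays. With median centring the 50 became 6 higher and 4 lower, and without the pair of Diazinon arrays 3 and 4 they became 32.

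Chlorpyrifos was called lower than Methylfarnesoate at all 50 (13.3% of all probes were). It was called lower than Aroclor at 27 (12.4%), and at 10 of them this difference reached 1 in log2 units (1.96%). All 50 had been selected as lower in Chlorpyrifos than the mean of these chemicals in the same levels. These counts are therefore partly set by the selection, and their excess over the shares of all probes shows nothing further. At the 50, the median level was 7.02 in Chlorpyrifos, 10.39 in Diazinon and 9.95 in Parathion. It was 11.45 in Atrazine, 9.73 in Methylfarnesoate and 7.51 in Aroclor. Ordered from the highest among the 36 chemicals, which ran from 11.56 to 6.73, Chlorpyrifos was number 34, Diazinon number 6 and Parathion number 7. Chlorpyrifos thus stood at the other end from Diazinon and Parathion at these probes, and DM06958 and DM00150, which led them, were above the Acetone control in Diazinon and Parathion. DM06958 had levels of 6.04, 6.20, 6.09 and 6.03 in Chlorpyrifos, 10.03, 9.98, 9.63 and 9.67 in Diazinon and 9.98, 10.29, 10.28 and 9.94 in Parathion. Atrazine stood at 11.97 ± 0.59, Methylfarnesoate at 10.14 ± 0.59 and Aroclor at 6.78 ± 0.02. The Acetone contrast was -2 (adjusted p = 1.1e-05) and the Methanol contrast -2.37 (adjusted p = 1.3e-07), and the difference between Chlorpyrifos and Aroclor was not called (-0.69, SE 0.36, adjusted p = 0.16). DM00150 stood at 6.19 ± 0.08 in Chlorpyrifos, 10.58 ± 0.18 in Diazinon and 10.13 ± 0.35 in Parathion, with contrasts of -1.71 and -1.73 (adjusted p of 6.7e-11 and 2.3e-10).

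**Figure D5:**
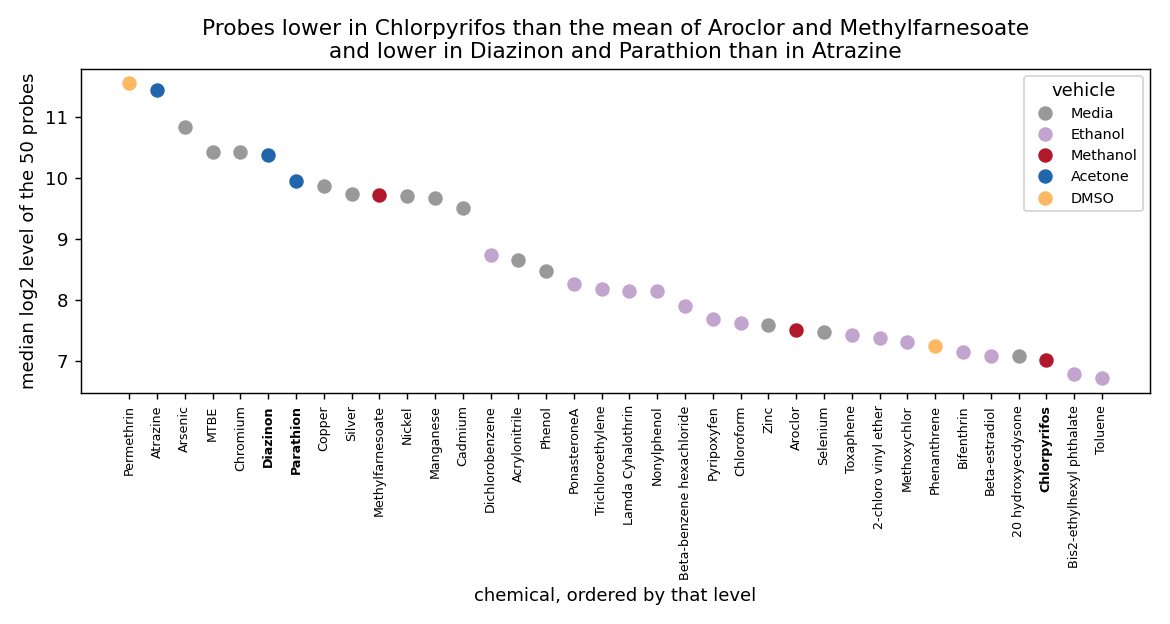
Median log2 scanner level of the 50 probes that were lower in Chlorpyrifos than the mean of Aroclor and Methylfarnesoate and lower in Diazinon and Parathion than in Atrazine (y axis), for all 36 chemicals (x axis, ordered by that level, coloured by vehicle, organophosphates in bold). Diazinon (10.39) and Parathion (9.95) lie near the top and Chlorpyrifos (7.02) near the bottom.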

How the data were processed

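Whole-animal RNA was hybridised to 1-colour Cy3 arrays. The deposited scanner tables give foreground and local background intensity per spot, per the file headers, without normalization. The deposited value table holds log2 ratios to a reference, and the submitters' processing notes name limma without further settings. Each of the 24 Methanol and Acetone arrays matched its own scanner column best among the 12 of its vehicle (lowest correlation 0.978), and the implied reference was common to a vehicle (correlation of at least 0.997). The direction is compound over control. Left out were 5 tables with 20 control arrays that correspond to no labelled sample, so the ratio against 0 is the test and the control's spread is left out.

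Median intensities were corrected with normexp (offset 50, which compresses dim differences), taken to log2, averaged per probe and quantile normalized over the arrays of all 36 chemicals. Above background means a net signal over the mean of the array's 77 negative controls plus 3 of their SD. Of 14338 probes, 62 with a bad-spot flag on an unsaturated spot were dropped, leaving 14276 and, in the value table, 13422 of 13481. Slide and scan date are not given in the sources used here.

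The planned fit counted 4 arrays per chemical. Because arrays formed pairs that differed by less than duplicate spots (in 32 of 36 chemicals), pair means were fitted instead, a choice made after seeing the data. The SD within pairs was under 0.5 times that between pairs in 18 of 36 chemicals, the pairs being less distinct elsewhere (in Zinc 0.296 within a pair and as little as 0.0782 between). The fit was made in limma 3.58.1 under R 4.3.3, with 1 mean per chemical over 72 samples and 36 residual degrees of freedom. Adjusted p-values are Benjamini-Hochberg, within each contrast or over the 3 compound pairs together. Deviations of same-numbered arrays of different compounds correlated at -0.37 to 0.31. Between Chlorpyrifos and Parathion they were -0.37, 0.31, -0.33 and 0.29 for arrays 1 to 4. The pairs of arrays within each compound shape these values, so they cannot show whether samples of different compounds belong together. No samples were matched across compounds. Nothing says that the samples came from separate cultures, so the p-values measure the spread between them, which may be technical. A lower bound on a ratio sets a dim control at the highest detection threshold of the compound's own arrays, because the control arrays were not used. On the log2 scale this threshold was 3.79 in Chlorpyrifos, 4.48 in Diazinon and 5.87 in Parathion. Bounds of Diazinon and Parathion against the same Acetone control are therefore not comparable. A dim compound is set at its own arrays' thresholds, or in scanner levels at each array's lowest level above background, unless its value is higher. Named probes are the first by size of change under each rule, at most 2 higher and 2 lower per comparison. The compounds, lists and rules were chosen with earlier results of these data known. The code was tested on simulated data. Figures were drawn with matplotlib.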

Additional observations from a re-analysis of the deposited data

Results flagged for a closer look

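At 26 probes Chlorpyrifos was called above the Methanol control while Diazinon and Parathion were both called below the Acetone control, and at 104 probes the directions were the other way round (0.194% and 0.775% of 13422). They stood out because the contrasts of Chlorpyrifos with Diazinon and with Parathion were both called as well. Of the 26, 10 were above background on all 12 arrays and 16 differed in the same direction in the scanner levels. Of the 104 the numbers were 54 and 72. These probes had been called in both contrasts of ratios from the same arrays, so the 16 and 72 are partly set by the selection. No share over all probes was computed for these counts. The median ratio of the 26 was 1.42 in Chlorpyrifos, -1.92 in Diazinon and -1.78 in Parathion, beside -1.16 in Atrazine, 0.31 in Aroclor and 0.53 in Methylfarnesoate. That of the 104 was -1.43, 2.62 and 1.98, beside 2.99 in Atrazine, -0.20 in Aroclor and 1.56 in Methylfarnesoate. Vehicle and compound cannot be told apart here.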

How the results depend on the processing

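Of 303 recomputed counts 265 stayed within 1.5 times the reported one, and of 1535 recomputed values of named probes 9 lost their call and 0 reversed. Many of the 35 settings leave out arrays of 1 compound and hardly touch the values of the others. Leaving out 1 array also keeps its close pair mate. These totals are therefore partly fixed in advance and do not measure how stable the results are. Without a minimum change the calls were 3398, 6644 and 6400 against control in Chlorpyrifos, Diazinon and Parathion, 225 shared, 3747 between Diazinon and Parathion, 6454 and 6291 for Chlorpyrifos with each, 4829 and 2428 against the other Methanol and Acetone chemicals, and 271 set apart in both, 84 higher and 187 lower. With a minimum of 2 they were 131, 823, 554, 7, 196, 1166, 904, 95, 20 and 1. Giving the control the treated samples' error left 510 calls in Chlorpyrifos and 35 shared, all 35 among the 53. Quantile normalized ratios gave 1879 and 113, with 48 of the 53 kept, and the filter on dim probes gave 487 and 33. Plain background subtraction, the measure the selection of the compounds named, gave 1425 between Diazinon and Parathion, 1686 in the Methanol and 702 in the Acetone contrast. Median centring gave 413 in the Acetone contrast and 10 set apart. Deposited ratios in place of scanner levels gave 1477, 1693 and 744, and 80 set apart. Scanner levels in place of ratios gave 1983 and 1107 for Chlorpyrifos with Diazinon and Parathion. The cause of these shifts was not tested.

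Leaving out 1 array or 1 pair gave 577 to 867 calls in Chlorpyrifos, 2090 to 2356 in Diazinon, 1974 to 2191 in Parathion, 37 to 64 shared, 586 to 851 between Diazinon and Parathion, 2927 to 3497 and 2701 to 3281 for Chlorpyrifos with each, 674 to 789 and 189 to 257 against the other chemicals, and 32 to 59 set apart. Only the 32, without Diazinon arrays 3 and 4, moved a count by over 1.5 times. A compound left with 1 pair was assumed to vary like the others. With the replicate number as a block and arrays counted singly, 52 probes were shared and 736 differed between Diazinon and Parathion. Arrays counted singly without the block gave 56 and 738. Single arrays were the planned fit. The pair means reported in its place, the leave-out of pairs, the dropping of all flagged probes and the scanner levels for Chlorpyrifos were chosen after seeing the data. No slide or scan date could be used as a block. Signal near background limits the shared rises, and without gene names no pathway was examined.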
